A study of Caenorhabditis elegans with 12 samples.

Results

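The genes described here encode the enzymes that activate fatty acids and carry out the first steps of their oxidation in Caenorhabditis elegans. Members were all genes of the deposited expression table whose symbol began with acs- (acyl-CoA synthetases), acdh- (acyl-CoA dehydrogenases), ech- (enoyl-CoA hydratases) or cpt- (carnitine palmitoyltransferases). Where a gene had several transcript models, the model with the highest mean over all libraries was kept. This gave 49 members of 30301 genes, with 21 acs, 13 acdh, 9 ech and 6 cpt genes. All 49 were tested, since each had at least 10 normalised reads in at least 3 libraries. The symbols were a rule of naming and not of measured function. For 18 members, an exon overlaps another annotated gene, and because the library kit does not mark strand, reads of such overlapping genes cannot be told apart.

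An acyl-CoA synthetase joins a fatty acid to coenzyme A, and only this activated form can be oxidised or built into lipids. Carnitine palmitoyltransferases carry long activated chains into the mitochondrion, the outer-membrane enzyme (CPT1) forming the acyl-carnitine and the inner-membrane enzyme (CPT2) releasing it again. In each round of beta-oxidation an acyl-CoA dehydrogenase then puts in a double bond and an enoyl-CoA hydratase adds water across it, before a hydroxyacyl-CoA dehydrogenase and a thiolase complete the cycle. In C. elegans the intestine is the main store of fat, the nuclear receptor NHR-49 is known to drive several of these genes, and some members serve other pathways, such as the breakdown of propionate.

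RNA was sequenced from whole animals of 2 genotypes, wild type and a dlk-1 mutant, and both were exposed to fluvastatin at 0 or 1 mM. dlk-1 encodes a MAP kinase kinase kinase that acts upstream of a p38-type kinase, and the sample titles call the mutant a p38 knockout, without naming its allele. Fluvastatin is a statin, an inhibitor of HMG-CoA reductase in the mevalonate pathway. All animals were grown from synchronized L1 larvae on OP-50 bacteria, moved at the L4 stage to plates with or without the drug, and collected after 9 h, with many animals pooled in each sample. The 4 groups were wild-type control, wild type with fluvastatin, dlk-1 control and dlk-1 with fluvastatin, each with 3 libraries. The labels do not say that the 3 libraries of a group came from separate cultures, so p-values measure only the spread between these samples. Because whole animals were used, fewer cells of a type and less RNA per cell cannot be told apart.

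Library depth, taken as the reads summed over the kept model of each gene, ran from 9370975 to 12438131 reads. Values below are normalised reads, which are the authors' read counts divided by a size factor for each library. Reads of the dlk-1 gene itself were 961, 791 and 911 in the wild-type controls and 481, 541 and 506 in the dlk-1 controls, and 1419, 983 and 1345 and 792, 706 and 804 with fluvastatin. The mutant libraries lay below their wild-type counterparts at both doses without overlap. The changes were -0.80 ± 0.14 and -0.69 ± 0.14 on the log2 scale (SE from the fit without the replicate number). These differences passed the threshold with the replicate number in the model (adjusted p = 0.011 and 0.0218) and not without it (adjusted p = 1.0 and 1.0).

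The members spanned a wide range of levels. Compared per kilobase of transcript and averaged over the 12 libraries, acdh-1 was the highest at 13140.1 normalised reads per kb. acdh-1 encodes the short-chain dehydrogenase that opens the vitamin B12-independent propionate shunt, and ech-6, which encodes the enoyl-CoA hydratase of the same shunt, came next at 5481. The acs family was led by acs-19, a homologue of cytosolic acetyl-CoA synthetase, at 3536, followed by acs-1, which activates branched-chain fatty acids, at 2108. cpt-1 and cpt-2, the homologues of CPT1 and CPT2, were close to each other at 1393 and 1287 per kb. At the bottom stood cpt-3 at 5.14 and acs-9 at 12.6. Family medians were 131 per kb for acs, 682 for acdh, 378 for ech and 172 for cpt. Together the members took 0.661 to 0.759% of a library's reads summed over the kept model of each gene. acdh-1 alone made up 22.2 to 26.1% of the members' normalised reads.

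**Figure D1:**
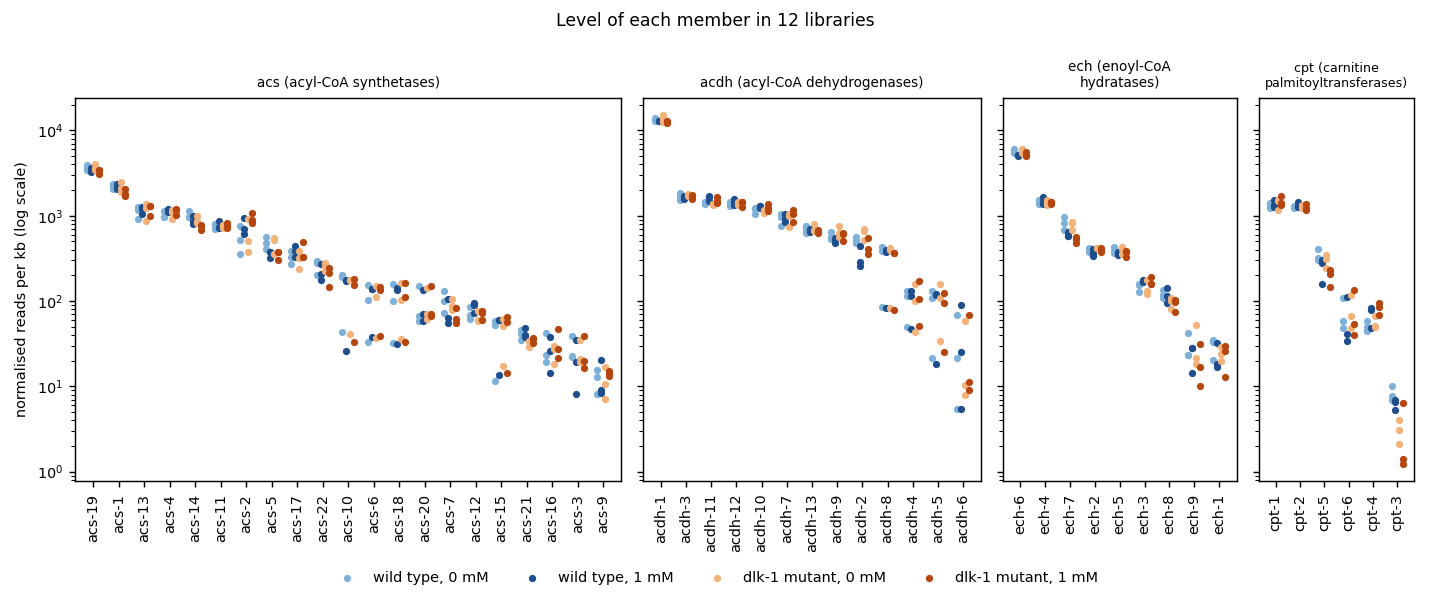
Level of each member in each of the 12 libraries, in normalised reads per kilobase of transcript on a log axis, in 4 panels by family, with groups marked by colour. The 4 groups overlap for most members, and the spread between members is far larger than the spread between groups, from cpt-3 at a mean of 5.14 to acdh-1 at 13140 per kb.

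The libraries of a group were not alike, and the difference followed the replicate number. Libraries with the same number deviated from their group means together, although the labels do not say what a number marks. In the fit with replicate number and group as terms, 38 of 49 members differed between replicate numbers, a share near the 75.7% of all tested genes that did. By family these were 20 of 21 acs, 10 of 13 acdh, 5 of 9 ech and 3 of 6 cpt genes. A group of 8 members was at least 2-fold lower in replicate 2 than in replicates 1 and 3, a share near the 14.9% of all tested genes that were. They were acs-6, acs-10, acs-15, acs-18, acdh-4, acdh-5, acdh-6 and acdh-8, with replicate 2 lower by 2.64- to 5.003-fold, and every replicate-2 library lay below every other. acs-3 and cpt-6 were at least 2-fold higher in replicate 2 (4.49% of all genes). Counting only whether the 4 replicate-2 libraries lay wholly apart, 9 members were below the others (17.6% of all genes) and 4 above (20.6%).

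Tissue markers moved with the replicate number too. The summed level of 5 sperm markers (msp-3, msp-19, msp-56, spe-11 and ssp-9) was 1549 to 1622 normalised reads in the 4 replicate-2 libraries, 3876 to 4516 in replicate 1 and 4569.9 to 5568 in replicate 3. The sum of 9 intestinal markers was 24444 to 28253 in replicate 2, 31258 to 34628 in replicate 1 and 33318 to 42739 in replicate 3. For 8 epidermal markers the ranges were 4148 to 5896, 8748 to 9998 and 6719 to 8244, and for 5 body muscle markers 43458 to 52015, 61205 to 63112 and 69892 to 83971, in the same order. All 4 of these sums were lower in every replicate-2 library than in any other library, by 2.88-fold for sperm, 1.63-fold for epidermis, 1.39-fold for body muscle and 1.33-fold for intestine on average. The sum of 5 germline and oocyte markers was not, at 37457 to 39536 in replicate 2, 26461 to 30251 in replicate 1 and 37361 to 41761 in replicate 3. The part of these tissues in the members' differences between replicate numbers was not tested. For the 8 members, the fluvastatin effect in wild type ran from -0.36 to 0.20 on the log2 scale, and its SE fell from 0.62 to 1.24 without the replicate number to 0.074 to 0.322 with it. The 8 were picked for being low in replicate 2, so this fall in SE follows from how they were chosen. Over all members the median SE was 0.197 without and 0.094 with the replicate number in the model.

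**Figure D2:**
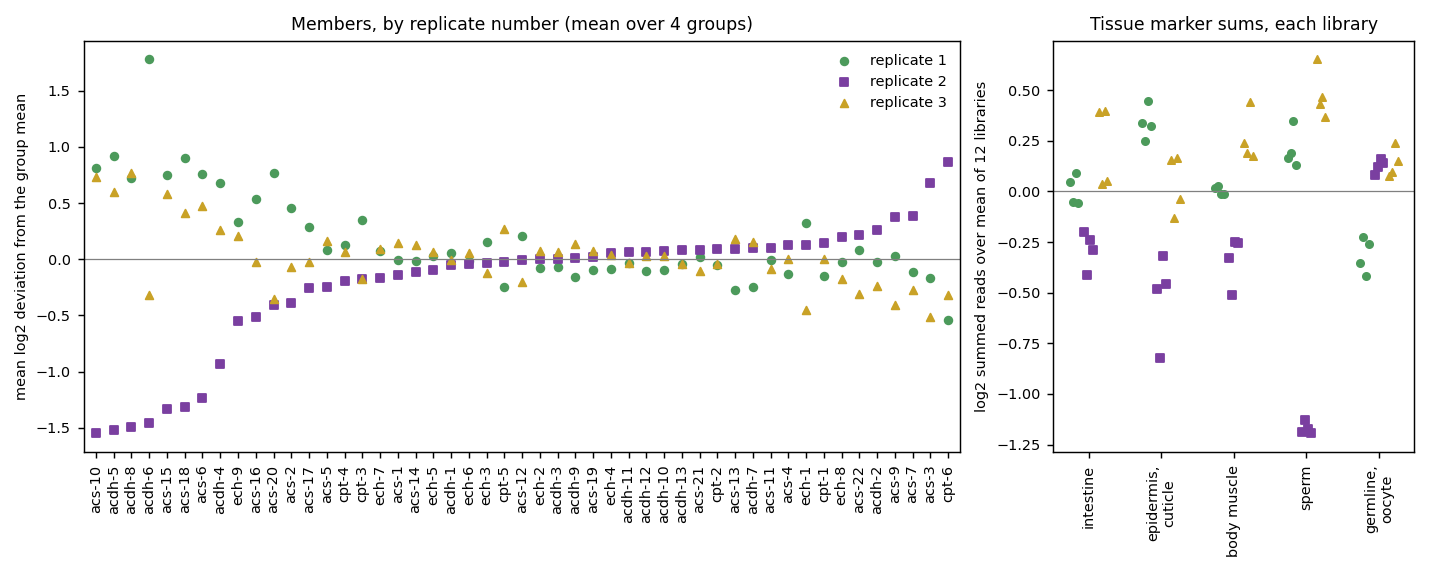
Left, mean log2 deviation of each of the 49 members from its group mean, by replicate number. Right, summed normalised reads of each tissue's markers in each library, as log2 over the mean of the 12 libraries. The 4 replicate-2 libraries are the lowest for the sperm, epidermis, body muscle and intestine sums and not for germline and oocyte, and 8 members are at least 2-fold lower in them.

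The first comparison was fluvastatin against control in each genotype. Without the replicate number in the model, no member passed the threshold of an adjusted p under 0.05 (limma with Benjamini-Hochberg adjustment over all 15529 tested genes), in wild type, where 1.82% of all genes did, or in the dlk-1 mutant, where 1.38% did. Unadjusted p-values were under 0.05 for 3 members in wild type (5.83% of all genes) and 5 in the mutant (5.69%). Treated libraries lay wholly above the controls for 3 members in wild type (4.6% of all genes) and 2 in the mutant (3.87%), and wholly below them for 6 (4.37%) and 3 (4.06%). edgeR on the recovered reads called none in either genotype, and DESeq2 called none in wild type and 1 in the mutant, ech-7. The median 95% interval of a member's change reached 0.436 on either side on the log2 scale, and 0.204 with the replicate number in the model.

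Comparing libraries within replicate numbers, fluvastatin lowered acdh-2, acs-5 and ech-7 in both genotypes. In wild type these were the 3 members called, all lower, which is 6.12% of the members against 7.03% of all genes (3.25% lower), a share near the background. In the mutant 7 members were called, or 14.3% against 6.31% of all genes (3.22% higher and 3.09% lower), with acs-2 higher and ech-7, acs-5, acdh-2, acs-14, acs-1 and acs-22 lower. With the replicate number, edgeR also called acs-7 and acs-14 lower in wild type (adjusted p = 0.0447 and 0.0373). DESeq2 with it also called acs-2 higher and cpt-5 lower in wild type (adjusted p = 0.00143 and 0.0338) and acs-17 higher and cpt-5 lower in the mutant (0.0472 and 0.00387), and did not call acs-22. The median change of the members was -0.045 in wild type and -0.050 in the mutant on the log2 scale, against 0.0058 and 0.0072 for all genes, and single members ranged from -0.71 to 0.52 and from -0.64 to 0.74. Both genotypes gave a change of the same sign for 40 of 49 members (81.6%), as they did for 70.3% of all tested genes.

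The mean of both genotypes' fluvastatin effects, a contrast added after the data had been seen, gave a larger number of calls. With the replicate number in the model, 16 members passed, 5 higher and 11 lower, which is 32.7% against 12.5% of all genes (5.94% higher and 6.59% lower). The members are more highly expressed than most genes, with a median of 554 normalised reads against 185 for all tested genes. Among genes with a mean of at least 100, 15.2% passed (6.97% higher and 8.23% lower), as did 16 of the 40 members at that level. By family, 8 of 21 acs genes passed (2 higher, 6 lower), 4 of 13 acdh genes (2 higher, 2 lower), 2 of 9 ech genes (both lower) and 2 of 6 cpt genes (1 higher, 1 lower). Without the replicate number only ech-7 passed (adjusted p = 0.0203), where 3.29% of all genes did. In that fit the adjusted p was 0.0609 for acdh-2, 0.589 for acs-7, 0.778 for acs-22 and 0.936 for acs-17. Of the 16, the 10 that stayed called without any 1 of the 12 libraries were acs-2, acs-5, acs-7, acs-14, acs-17, acs-22, acdh-2, acdh-11, ech-6 and ech-7, and acs-1, acs-19, acdh-9, acdh-10, cpt-4 and cpt-5 did not stay called. When all libraries of 1 replicate number were left out, only acs-5, acdh-2 and ech-7 stayed called in 3 of 3 fits. Of the others of the 16, acs-2, acs-7, acs-14, acdh-11, cpt-4 and cpt-5 stayed called in 2 of 3. The calls of acs-17, acs-22, acdh-10 and ech-6 stayed in 1 of 3, and those of acs-1, acs-19 and acdh-9 in 0 of 3. All 6 treated libraries were above their same-numbered control for 9 members (18.4%, against 9.77% of all genes) and below it for 13 (26.5%, against 9.73%).

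**Figure D3:**
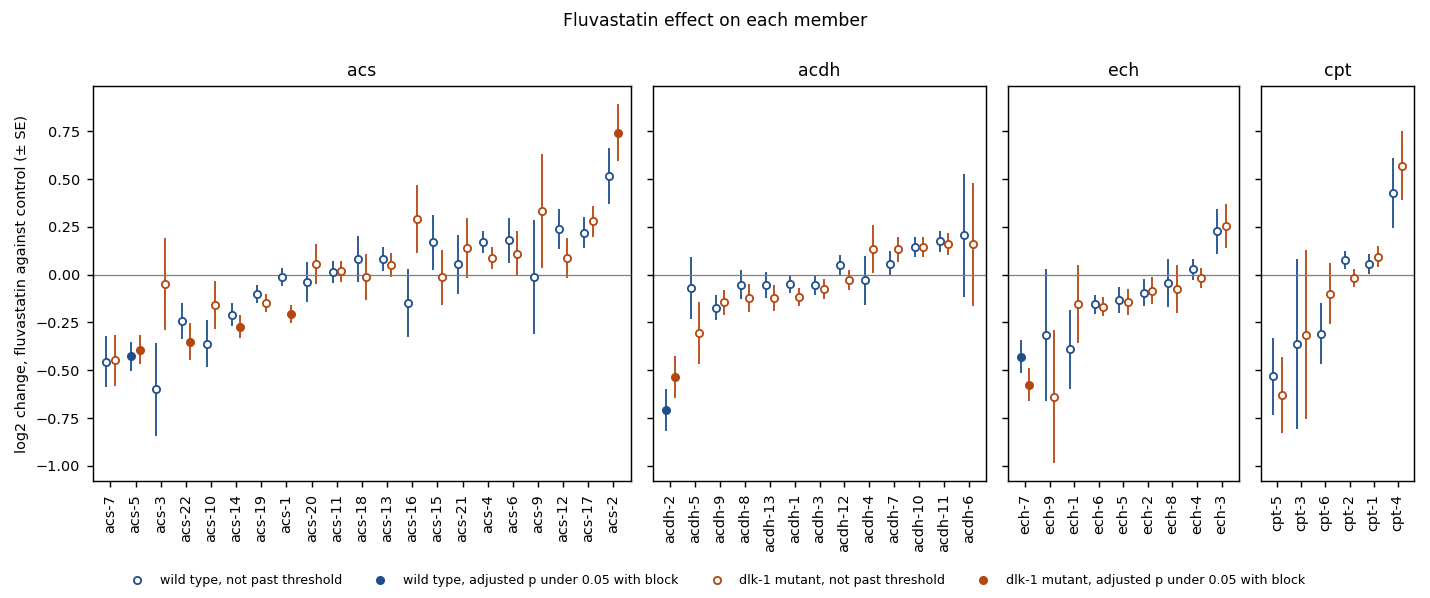
Fluvastatin effect on each member in wild type and in the dlk-1 mutant, as log2 change with its SE from the fit with the replicate number, where filled points have an adjusted p under 0.05. acdh-2, acs-5 and ech-7 are filled and below 0 in both genotypes, and acs-2 is filled and above 0 in the mutant, with an open point above 0 in wild type.

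Among the acyl-CoA synthetases, acs-2 rose. It encodes a mitochondrial synthetase that is a known target of NHR-49 and responds to fasting, and it lies at chrV:15567394-15569897 (WBcel235). It had 1560.4, 750.5 and 1082 normalised reads in replicates 1, 2 and 3 of the wild-type controls and 1965, 1289 and 1469 in treated wild type. In the mutant, the values were 1897, 772 and 1041 without fluvastatin and 2259.6, 1707 and 1854 with it. Each treated library was above the control of the same number, and replicate 1 was the highest and replicate 2 the lowest in every group, so that treated and control groups overlapped. The change was 0.74 ± 0.15 in the mutant (adjusted p = 0.0178 with the replicate number, 0.893 without) and 0.52 ± 0.15 in wild type (adjusted p = 0.085 with it), both as log2 ± SE. The call in the mutant was lost without dlk-1 control replicate 3 or treated replicate 3. Averaged over genotypes the rise was 0.63 ± 0.10 (adjusted p = 0.0037), higher in 6 of 6 pairs. DESeq2 with the replicate number called it in both genotypes.

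acs-5, which encodes a predicted long-chain acyl-CoA synthetase at chrIII:13540139-13543534, fell in both genotypes. Its libraries held 1032, 869.8 and 1196 normalised reads in replicates 1, 2 and 3 of the wild-type controls and 799, 681 and 811 in treated wild type. Mutant controls had 1104, 755 and 1169.6 and treated mutants 813, 653 and 812. Every treated library was below the control of its number, and in wild type the groups did not overlap. The change was -0.43 ± 0.074 in wild type and -0.39 ± 0.074 in the mutant (adjusted p = 0.00193 and 0.00456 with the replicate number, 0.744 and 0.929 without), and each call held without any single library.

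acs-14 and acs-22 were also lower with fluvastatin. For acs-14 there were 1619.6, 1639 and 1927 normalised reads in replicates 1, 2 and 3 of the wild-type controls and 1455, 1352 and 1682 in treated wild type. The dlk-1 libraries stood at 1456, 1376 and 1664 as controls and at 1312, 1142 and 1263 when treated. The treated mutant libraries were all below the mutant controls, while the wild-type groups overlapped. Its change was -0.27 ± 0.061 in the mutant (adjusted p = 0.015 with the replicate number, lost without replicate 2 or 3 of either mutant group), and in wild type the change was -0.21 ± 0.061 (adjusted p = 0.0585). acs-22 is one of a pair of homologues of the mammalian fatty acid transport proteins, a pair with a known role in the barrier of the cuticle. It showed 687, 725 and 491 normalised reads in replicates 1, 2 and 3 of the wild-type controls and 509.8, 661 and 436 in treated wild type. Without the drug the mutant gave 677, 627 and 545, and with it 523, 596 and 358. Each treated library was below its own control, with overlapping groups in both genotypes. Its change in the mutant was -0.35 ± 0.094 (adjusted p = 0.0437 with the replicate number) and was kept in only 3 of the 12 fits that left out 1 library, those without treated wild-type replicate 1 or 2 or mutant control replicate 2. The averaged change was -0.30 ± 0.067 (adjusted p = 0.0084) and held without any 1 library. An exon of acs-22 overlaps the gene dylt-2. The other homologue, acs-20, did not pass, with 375, 146 and 165 normalised reads in wild-type controls and 333, 143 and 175 in treated wild type. Its averaged change was 0.0082 ± 0.073 (adjusted p = 0.966).

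acs-7, which encodes a peroxisomal synthetase used in making ascaroside pheromones, was lower in 6 of 6 pairs. Libraries held 167, 222 and 121 normalised reads in replicates 1, 2 and 3 of the wild-type controls and 107, 176 and 92.01 in treated wild type. In the mutant, the values were 145, 178 and 133 without fluvastatin and 92.9, 139.8 and 104 with it. The groups overlapped in both genotypes, with replicate 2 the highest in each group. The averaged change was -0.45 ± 0.094 (adjusted p = 0.00505), with -0.45 ± 0.13 in wild type (adjusted p = 0.0611) and -0.45 ± 0.13 in the mutant (adjusted p = 0.0692), neither of which passed alone in limma, while edgeR called the wild-type change. Reads of acs-7 may include those of the overlapping C01G6.9. acs-17 was higher in 6 of 6 pairs. It stood at 1107, 777 and 954 normalised reads in replicates 1, 2 and 3 of the wild-type controls and 1253, 940.0 and 1099.6 in treated wild type. Mutant controls had 1097, 688 and 922 and treated mutants 1403, 954 and 929.6. It had an averaged rise of 0.25 ± 0.058 (adjusted p = 0.0102). Its groups overlapped in both genotypes, and an exon overlaps C46F4.3.

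The most abundant synthetases moved little. acs-1 had 4951, 4488 and 5230.1 normalised reads in replicates 1, 2 and 3 of the wild-type controls and 4842, 4516 and 5196 in treated wild type. The dlk-1 libraries stood at 4655, 4142 and 5489 as controls and at 4008, 3733 and 4596 when treated. Its groups overlapped in both genotypes, and an exon overlaps hpo-26. In the mutant it fell by 0.21 ± 0.048 on the log2 scale (adjusted p = 0.017 with the replicate number), a call lost without any one of dlk-1 control replicate 3 or the 3 treated mutant libraries, while in wild type the change was -0.011 ± 0.048 (adjusted p = 0.938). Averaged over genotypes, the change of acs-1 was -0.11 ± 0.034 and close to the threshold (adjusted p = 0.0499). That call was kept in 2 of the 12 fits that left out 1 library (highest adjusted p = 0.147). acs-19 had 7967, 8527 and 9245 normalised reads in replicates 1, 2 and 3 of the wild-type controls and 7570.4, 8467 and 7973 in treated wild type. Without the drug the mutant gave 7936, 8441 and 9389.6, and with it 7188, 7908 and 8094. It was lower with fluvastatin in 6 of 6 pairs with overlapping groups, and the averaged change of -0.12 ± 0.033 (adjusted p = 0.023) was kept in 7 of the 12 fits that left out 1 library (highest adjusted p = 0.0702). The remaining 12 acs genes did not pass in the limma fits on all 12 libraries, with averaged changes from -0.32 (acs-3) to 0.16 (acs-12). For the averaged effect, acs-4 (0.13 ± 0.041, adjusted p = 0.0575) passed in 2 of the 12 fits that left out 1 library and acs-10 (-0.26 ± 0.088, adjusted p = 0.0747) in 1, and acs-4 also passed in wild type without dlk-1 control replicate 1.

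Of the acyl-CoA dehydrogenases, acdh-2 had the largest fall. It lies at chrII:5544778-5547492, where an exon overlaps the insulin-like gene ins-13. There were 969.8, 1052 and 895 normalised reads in replicates 1, 2 and 3 of the wild-type controls and 532, 818 and 481 in treated wild type. In the mutant, the values were 1282, 1227 and 959 without fluvastatin and 747, 1011 and 654 with it. In wild type all 3 treated libraries were below all 3 controls, and in the mutant every treated library was below its own control while the groups overlapped. The change was -0.71 ± 0.11 in wild type (adjusted p = 0.0016 with the replicate number, 0.254 without) and -0.54 ± 0.11 in the mutant (adjusted p = 0.0124 with it, 0.695 without). The wild-type call held without any 1 library, whereas that in the mutant was lost without replicate 1 or 3 of either mutant group. Replicate 2 showed the smallest fall in both genotypes, and leaving out all 4 of its libraries put the wild-type change at -0.88 and past the threshold without the replicate number.

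acdh-1, the most abundant member, differed little between groups. It had 18656, 17618 and 18003 normalised reads in replicates 1, 2 and 3 of the wild-type controls and 17450.4, 17604 and 17357 in treated wild type. Mutant controls had 20443, 16844 and 18168 and treated mutants 17546, 16512 and 16983. It was lower with fluvastatin in 6 of 6 pairs, and the wild-type groups did not overlap, but the averaged change of -0.083 ± 0.033 did not pass (adjusted p = 0.13). acdh-11, which encodes a dehydrogenase known to restrain the fatty acid desaturase gene fat-7 during heat adaptation, was higher in 6 of 6 pairs. Its values were 2562, 2692 and 2707 normalised reads in replicates 1, 2 and 3 of the wild-type controls and 3075, 3158 and 2765 in treated wild type. The dlk-1 libraries stood at 2507, 2582 and 2546 as controls and at 2680.1, 3104 and 2762 when treated. Treated and control libraries did not overlap in either genotype. The averaged rise was 0.17 ± 0.039 (adjusted p = 0.0114), with 0.17 ± 0.056 in wild type and 0.16 ± 0.056 in the mutant, neither of which passed alone (adjusted p = 0.0903 and 0.133).

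acdh-10, a homologue of medium-chain acyl-CoA dehydrogenase, also rose on average, by 0.14 ± 0.038 (adjusted p = 0.0225), a call kept in 6 of the 12 fits that left out 1 library (highest adjusted p = 0.0749). There were 1467, 1640.2 and 1688 normalised reads in replicates 1, 2 and 3 of the wild-type controls and 1696, 1810.3 and 1784 in treated wild type. Without the drug the mutant gave 1469.7, 1616 and 1593, and with it 1578, 1911 and 1695. Each treated library was above its own control, without overlap of the groups in wild type and with overlap in the mutant. Its neighbour acdh-7 lies 114 bases away on the same strand of chromosome X. The pair's levels had a Pearson correlation of 0.765 over the 12 libraries, which share depth and replicate number, and acdh-7 did not pass at 0.095 ± 0.047 (adjusted p = 0.224). acdh-9 fell by 0.16 ± 0.046 (adjusted p = 0.0358), a call kept in 4 of the 12 fits that left out 1 library (highest adjusted p = 0.116). Libraries of acdh-9 held 709.8, 760.4 and 853 normalised reads in replicates 1, 2 and 3 of the wild-type controls and 634, 701 and 725 in treated wild type. In the mutant, the values were 753, 836 and 1007 without fluvastatin and 678, 828 and 836 with it. Each treated library was below its own control, with overlapping groups in both genotypes. The other 7 acdh genes, which include the 4 that were low in replicate 2, had averaged changes from -0.19 (acdh-5) to 0.18 (acdh-6), and none passed.

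ech-7, a predicted enoyl-CoA hydratase gene at chrI:14367616-14369773, had the lowest adjusted p of all members for the averaged effect. It had 629.7, 522 and 746 normalised reads in replicates 1, 2 and 3 of the wild-type controls and 502, 446 and 449 in treated wild type. Mutant controls had 635, 526 and 657 and treated mutants 437, 367 and 413. In each genotype all 3 treated libraries were below all 3 controls. The change was -0.43 ± 0.085 in wild type and -0.57 ± 0.085 in the mutant (adjusted p = 0.00544 and 0.000648 with the replicate number, 0.342 and 0.119 without). In the mutant the call held without any 1 library, and in wild type it was lost without treated replicate 3 (adjusted p = 0.0546). The averaged change was -0.50 ± 0.06 (adjusted p = 4.73e-05), lower in 6 of 6 pairs.

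ech-6 of the propionate shunt fell less. Its libraries had 5719, 5588 and 6165 normalised reads in replicates 1, 2 and 3 of the wild-type controls and 5137, 5238 and 5298 in treated wild type. The dlk-1 libraries stood at 6197, 5481 and 6143 as controls and at 5037, 5222 and 5599 when treated. Treated libraries were lower in every pair, without overlap of the groups in wild type and with overlap in the mutant, and with an averaged change of -0.16 ± 0.035 (adjusted p = 0.00627), though neither genotype passed alone. The ech-1 gene of the table corresponds to ech-1.1 of the current annotation, a homologue of the alpha subunit of the mitochondrial trifunctional protein. Its level was low, with 82.6, 86.8 and 51.03 normalised reads in replicates 1, 2 and 3 of the wild-type controls and 81.9, 45.8 and 42.6 in treated wild type. Without the drug the mutant gave 73.2, 60.9 and 49.99, and with it 65.02, 75.5 and 32.7. The groups overlapped in both genotypes. It did not pass (-0.27 ± 0.15, adjusted p = 0.264). The paralogue ech-1.2 was listed under its sequence name only, so the symbol rule did not select it. It was far more abundant, at 4489.9, 5018 and 4830.1 in wild-type controls and 4854, 5310.3 and 5259 in treated wild type, and it did not pass in any comparison. The remaining 6 ech genes did not pass on all 12 libraries, with averaged changes from -0.48 (ech-9, at most 86.04 normalised reads) to 0.24 (ech-3), and each of these 2 passed in 1 of the 12 fits that left out 1 library.

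The carnitine palmitoyltransferases with the best known roles, cpt-1 and cpt-2, did not pass the threshold. cpt-1 had 3411, 3991 and 3728 normalised reads in replicates 1, 2 and 3 of the wild-type controls and 3547, 4237 and 3791 in treated wild type. In the mutant, the values were 3301, 4273 and 4129.7 without fluvastatin and 3782, 4722 and 3969 with it. cpt-2 had 2596, 2808 and 2674 normalised reads in replicates 1, 2 and 3 of the wild-type controls and 2807, 3059.6 and 2672 in treated wild type. Mutant controls had 2682, 2879 and 2649 and treated mutants 2517, 2941 and 2654. Their averaged changes were 0.075 ± 0.038 and 0.03 ± 0.034 (adjusted p = 0.229 and 0.64), with the groups overlapping in both genotypes. cpt-4 and cpt-5, further homologues, changed in opposite directions. cpt-4 had 136, 102 and 116 normalised reads in replicates 1, 2 and 3 of the wild-type controls and 191, 111 and 184 in treated wild type. The dlk-1 libraries stood at 157, 117 and 114 as controls and at 159, 197 and 221 when treated. The groups overlapped in wild type and not in the mutant, with an averaged rise of 0.50 ± 0.13 (adjusted p = 0.0232). cpt-5 had 732, 688 and 934 normalised reads in replicates 1, 2 and 3 of the wild-type controls and 358, 634 and 683 in treated wild type. Without the drug the mutant gave 715, 554 and 784, and with it 335, 476 and 526. All 3 treated libraries were below all 3 controls in each genotype, with an averaged change of -0.58 ± 0.14 (adjusted p = 0.0315). The call of cpt-4 was kept in 5 of the 12 fits that left out 1 library (highest adjusted p = 0.0824), and that of cpt-5 was kept in 6 of the 12 fits that left out 1 library (highest adjusted p = 0.09). cpt-6 did not pass (-0.20 ± 0.11, adjusted p = 0.283), nor did cpt-3.

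**Figure D4:**
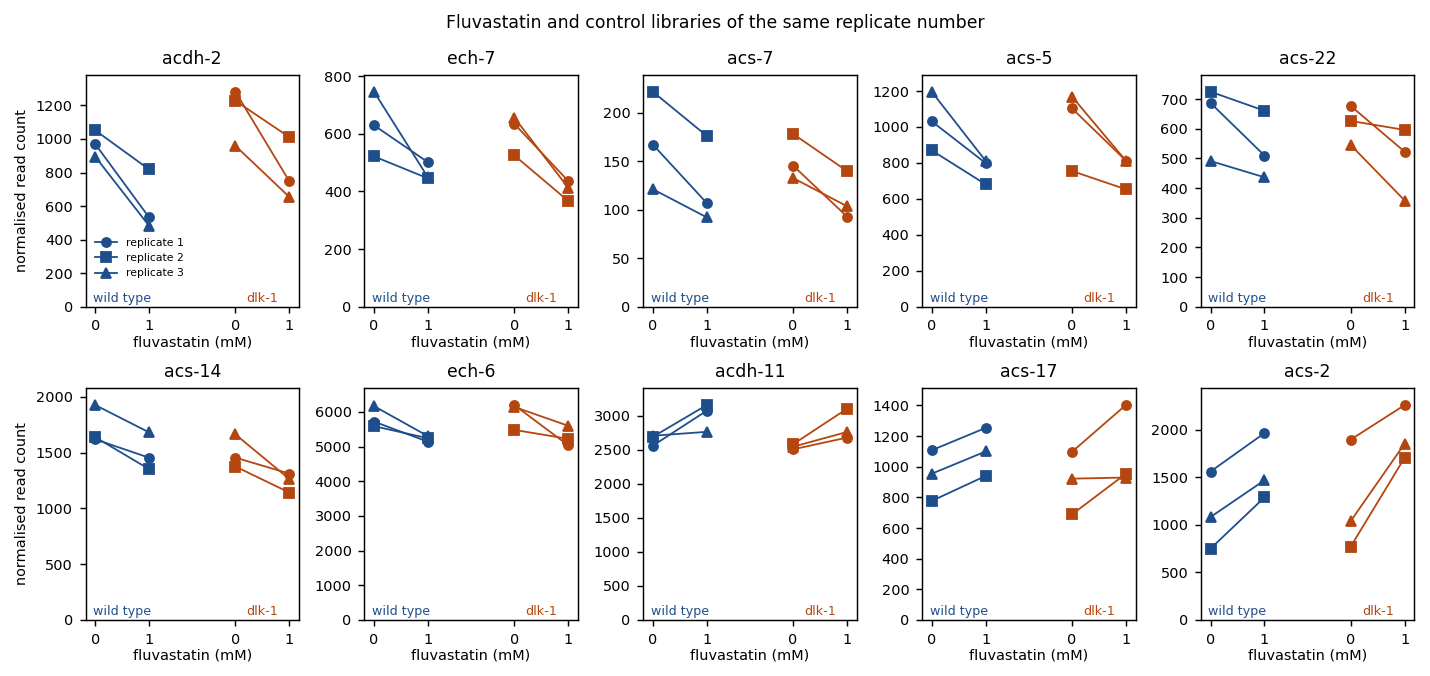
Normalised reads of the 10 members that kept their call for the averaged fluvastatin effect without any 1 library, with control and treated libraries of the same genotype and replicate number joined by a line and each axis starting at 0. Lines slope down for acdh-2, ech-7, acs-7, acs-5, acs-22, acs-14 and ech-6 and up for acdh-11, acs-17 and acs-2, in 6 of 6 pairs each. Only acs-5, acdh-2 and ech-7 also kept their call without any 1 replicate number.

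The second comparison was between genotypes. No member passed between dlk-1 mutant and wild type, with or without fluvastatin, in the fit without the replicate number, where 0% of all tested genes did, or with it, where 0.0966% and 0.27% did. The count at an unadjusted p under 0.05 was 1 member without fluvastatin (0.805% of all genes) and 2 with it (1.46%). With the replicate number in the model it was 4 (7.41% of all genes) and 8 (7.94%), the 8 being acs-1, acs-12, acs-14, acdh-2, acdh-9, ech-7, ech-8 and cpt-3. edgeR called none. DESeq2 with the replicate number called acs-1, at 4842, 4516 and 5196 in treated wild type and 4008, 3733 and 4596 in the treated mutant, where limma gave -0.24 ± 0.048 and did not call it on all 12 libraries (adjusted p = 0.0599 with the replicate number, 0.0408 without mutant control replicate 1 and 0.0469 without mutant control replicate 3). The largest change was that of cpt-3, at 17.4, 22.6 and 15.4 normalised reads in wild-type controls and 9.15, 4.76 and 6.98 in mutant controls, and at 11.96, 15.6 and 14.6 and 14.4, 2.8 and 3.17 with fluvastatin. These values are few reads, the controls did not overlap and the treated groups did. Every wild-type library of cpt-3 reached the level that the filter for testing asked for. Among the mutant libraries only treated replicate 1 reached it. The gene was therefore admitted by the same wild-type reads that its change between genotypes rests on. The change of -1.31 ± 0.53 and -1.26 ± 0.53 (SE from the fit without the replicate number) did not pass (adjusted p = 1.0 and 1.0, and 0.53 and 0.435 with the replicate number). Apart from cpt-3, member changes between genotypes lay between -0.33 and 0.31 without fluvastatin. Mutant libraries lay wholly below wild type for 3 members without fluvastatin (1.79% of all genes) and 3 with it (3%). They lay wholly above for 0 members at either dose (1.13% and 1.54% of all genes).

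Whether fluvastatin acted differently in the mutant was tested as the difference of the effects in the 2 genotypes. No member passed, with or without the replicate number, nor did any of all tested genes (0%), by limma or edgeR. The unadjusted p was under 0.05 for 0 members and 29 genes (0.187%) without the replicate number, and for 1 member and 386 genes (2.49%) with it. That member was acs-1, at -0.20 ± 0.067 with a 95% interval of -0.34 to -0.051 with the replicate number (unadjusted p = 0.0117, adjusted p = 1.0) and -0.58 to 0.18 without it. For acs-2, acs-14 and acs-22, which limma also called in the mutant and not in wild type, the difference was 0.23 (-0.25 to 0.70 with the replicate number, -0.84 to 1.29 without), -0.062 (-0.25 to 0.12 and -0.42 to 0.30) and -0.11 (-0.39 to 0.18 and -0.81 to 0.60). Over the members the intervals reached a median of 0.288 on either side with the replicate number and 0.616 without it.

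Other genes of fat oxidation were read in lists beside the members, for the averaged fluvastatin effect with the replicate number, where 12.5% of all genes passed. Of 13 other enzymes of mitochondrial beta-oxidation and the propionate shunt, none rose and 2 fell. They were hacd-1, a hydroxyacyl-CoA dehydrogenase gene (-0.77 ± 0.10, adjusted p = 0.000729), which also passed without the replicate number (0.0375), and hach-1 of the propionate shunt (-0.19 ± 0.036). Of 13 genes of peroxisomal beta-oxidation, 2 rose and 2 fell. The thiolase gene daf-22 (0.52 ± 0.038, also past the threshold without the replicate number) and the transporter gene pmp-4 (0.37 ± 0.092) rose, and the acyl-CoA oxidase genes acox-1.2 (-0.54 ± 0.11) and acox-1 (-0.14 ± 0.039) fell. The median change was -0.089 for the mitochondrial and -0.12 for the peroxisomal list, against 0.0057 over all genes.

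None of the 7 genes of vitamin B12-dependent propionate breakdown and methionine synthesis passed. Of 12 regulators, 3 rose, the nuclear receptor genes nhr-62 (0.97 ± 0.15, which also passed without the replicate number) and nhr-80 (0.26 ± 0.076) and the SREBP homologue sbp-1 (0.29 ± 0.063), while nhr-68, which regulates the propionate shunt, fell (-0.17 ± 0.048). nhr-49 itself was at 0.054 ± 0.037 and did not pass. Of 24 tested genes of fatty acid release, binding and synthesis, the fatty acid binding protein gene lbp-3 rose (0.37 ± 0.046) and 3 fell, the lysosomal lipase genes lipl-1 (-1.03 ± 0.16) and lipl-2 (-1.04 ± 0.18) and the acyl-CoA binding protein gene acbp-1 (-0.23 ± 0.044). Without the replicate number in the model, no gene of this last list passed, where 3.29% of all genes did.

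Markers of tissues were read in the same fit. Of 9 intestinal markers, 3 fell with fluvastatin, pept-1 (-0.29 ± 0.031), asp-1 (-0.41 ± 0.052) and cpr-6 (-0.33 ± 0.049), and none rose. Their summed level was 28253 to 42705 normalised reads in wild-type controls, 24444 to 33318 in treated wild type, 27489 to 42739 in mutant controls and 26623 to 33725 in treated mutants, so the groups overlapped. Each treated library was nonetheless below the control of its number in this sum. The epidermal sum was likewise lower in every such pair. Sums for body muscle, for sperm and for germline and oocyte were lower in only some pairs. Among epidermal markers 2 of 8 fell, among body muscle markers 1 of 5, and no marker of sperm (5) or of germline and oocyte (5) passed. Without the replicate number in the model, no marker of any tissue passed. No marker was at 0 in any library. The part of these tissues in the members' changes was not tested.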

How the data were processed

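Whole-animal RNA was sequenced in 12 libraries (4 groups of 3) as 50 bp single reads from the TruSeq RNA v2 kit, per the labels' protocols. The authors deposited 1 table of normalised read counts per transcript model, a signal in which each read count is divided by a size factor of its library. The submitters' processing notes list Bowtie and DESeq2 with no version or role, and no source used here gives the genome build. Multiplying the values back gave whole reads for 100% of them within 0.01 of a read. Depth, summed over the kept model of each gene, was 9370975 to 12438131 reads per library.

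One model per gene was kept, that with the highest mean. The main test was limma 3.58.1 (R 4.3.3, trend and robust) on log2(value + 1), for the 15529 of 30301 genes that reached 10 normalised reads in 3 or more libraries, over all 4 groups, two-sided, with Benjamini-Hochberg adjustment over all tested genes and a threshold of 0.05. A log2 change on this scale understates the change of low genes. The replicate number as a block was an alternative. In all 18 pairs of same-numbered libraries the deviations from the group means were correlated (0.555 to 0.887, against -0.781 to 0.353 for different numbers), so the numbers were taken to pair the samples. This pairing comes from the data and not from the labels. Deviations from a group mean cancel within the group, so the lower correlations of different numbers partly follow from the positive ones of same numbers. Adjusted p-values of single genes are those with the block unless stated, and only some stand beside those without it. Errors are SE from the fit with the block. Those of the dlk-1 gene and of cpt-3 between genotypes are from the fit without it. edgeR 4.0.16, DESeq2 1.42.0 and limma-voom were run on the recovered reads. Further alternatives were pseudocounts of 0.5 and 5, other filters, TMM scaling, the mean over a gene's models, only the groups compared, and leaving out libraries. The fits were tested on simulated data.

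Values per sample are given for members past the threshold with or without the block in a comparison of groups or for the averaged effect, for members of known role and for the highest member of each family per kilobase, and the rest by ranges and counts. Coordinates, lengths and overlaps come from Ensembl release 115 (WBcel235), matched by sequence name for all 49 members, and may differ from the build the authors used. The members, the gene lists and the rule for named genes were chosen with earlier results of these data known. The fluvastatin effect averaged over genotypes was added after the data had been seen.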

Additional observations from a re-analysis of the deposited data

How the results depend on the processing

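Without the replicate block no member passed in wild type, in the mutant, between genotypes or for the difference of effects under the pseudocounts, filters, TMM scaling, mean over models, edgeR and limma-voom. With the replicate block, 3 members passed for fluvastatin in wild type and 7 in the mutant. The block with TMM scaling gave 3 and 6, with a pseudocount of 5 gave 3 and 7, with edgeR gave 5 and 7, and with DESeq2 gave 5 and 8, the last also calling 1 member between treated genotypes. DESeq2 without the block called 1 member in the mutant. For the effect averaged over genotypes, 1 member passed without and 16 with the replicate block, 14 with TMM scaling, 16 with a pseudocount of 5 and 16 with edgeR, all with the block. The block changed no other call among the members. The cause of these differences between fits was not tested.

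Leaving out 1 library gave 0 to 1 members in wild type without the block and 3 to 7 with it, 0 without and 2 to 8 with it in the mutant, and 0 to 1 between treated genotypes with it. For the averaged effect, leaving out 1 library gave 0 to 2 members without the block and 11 to 17 with it (11, 12, 13, 14, 15 or 17), and leaving out all 4 libraries of replicate 1, 2 or 3 gave 0, 3 and 0 without the block and 8, 9 and 8 with it. Without replicate 2, acdh-2 passed in wild type without the block. Over the 10 calls of single members made with the block, all 420 alternative values kept their direction. Part of these values could not change, since leaving out a library of the other genotype returned the same log2 change. All of them reuse the data that gave the calls, so this count is not separate support for the calls. Differences between replicate numbers were called for 36 to 39 members under the alternatives. Depth limits what can be said of cpt-3 and acs-9, which rest on few reads.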
